A study of Drosophila melanogaster with 9 samples.

Results

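The comparison described here sets 3 libraries of brains from PGRP-LB mutant flies exposed to the bacterium Ecc15 against 3 libraries of wild-type brains exposed to the same bacterium, which together are 6 of the 9 libraries of the series. Members were chosen by their labels alone, as all libraries of both exposed groups. The PGRP-LB Ecc15 group holds PGRP-LB mutant females and the WT Ecc15 group wild-type females, both given Ecc15 (Erwinia carotovora carotovora 15, a Gram-negative plant bacterium) by mouth for 16 h. The remaining group, WT control, holds wild-type females kept without the bacterium and is given beside the others as background. All flies were adult females aged 4 to 6 days, and 20 dissected brains were pooled per library. The series' design text speaks of 24 hours of feeding, with sucrose as the control diet, where the extraction protocol gives 16 h.

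Peptidoglycan is the cell wall polymer of bacteria, and fragments of it that reach the body cavity of a fly activate the Imd pathway, an NF-κB immune pathway, in fat body and other tissues. The receptors PGRP-LC and PGRP-LE sense the fragments, the NF-κB factor Relish is cut and moves to the nucleus, and genes for antimicrobial peptides are switched on. PGRP-LB is a secreted and cytosolic amidase that cleaves peptidoglycan into fragments without stimulating activity and so dampens the pathway. The comparison asks how brain RNA differs between exposed flies of both genotypes. The labels name the mutation only by its gene, the deposited columns of these libraries add a letter D to that name without explaining it, and the labels give no strain for either genotype. No library of mutant brains without Ecc15 was analysed here. A difference between the exposed groups therefore cannot be told apart into a difference of strain, a lasting difference of the mutant and a difference in the response to Ecc15.

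All values below are the authors' normalized counts, rounded to whole numbers by the authors in 2 tables scaled separately, and here put on one scale over all 9 libraries. Estimated reads per library lay between 19.4 and 30.7 M, fewest in WT Ecc15 library S2. Genes were tested with limma on log2(value + 1), and a gene is said to be called, higher or lower when its Benjamini-Hochberg adjusted p was under 0.05. Log2 changes and folds were both computed after adding 1, so those of weakly expressed genes are understated, and a fold is the ratio of geometric means. The brain label was checked against neuronal and glial markers, which stood high in every library: 20 neuronal genes averaged 13.88, 13.79 and 13.83 in PGRP-LB Ecc15, 13.92, 13.85 and 13.94 in WT Ecc15 and 13.73, 13.94 and 13.87 in WT control (mean log2(value + 1)). The glial transcription factor repo had 4098, 3922 and 4973 in PGRP-LB Ecc15, 3857, 4565 and 4980.2 in WT Ecc15 and 4208, 4375 and 4786 in WT control and was not called (adjusted p = 0.834).

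Brains of exposed PGRP-LB mutants differed from exposed wild-type brains in many more genes than immune genes. Among 13224 genes tested, 1319 were called higher in the mutant and 880 lower, which is 9.97% and 6.65% of the genes tested and 16.6% in both directions. At an unadjusted p under 0.05, 2233 were higher and 1714 lower. The 3 mutant libraries lay wholly above the 3 wild-type libraries for 21.5% of the genes and wholly below for 17.4%, together 38.9%. The larger differences ran upward: 442 genes were called with over a 4-fold higher value and 119 with over a 4-fold lower one. Without WT Ecc15 library S2 the counts were 813 higher and 536 lower, and without WT Ecc15 library S1 570 were lower. Under quantile normalization the split of the calls turned to 1078 higher and 1393 lower, so the balance of higher and lower calls depended on the scaling. The median log2 change over all genes was 0.01, and -0.08 under quantile normalization.

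**Figure D1:**
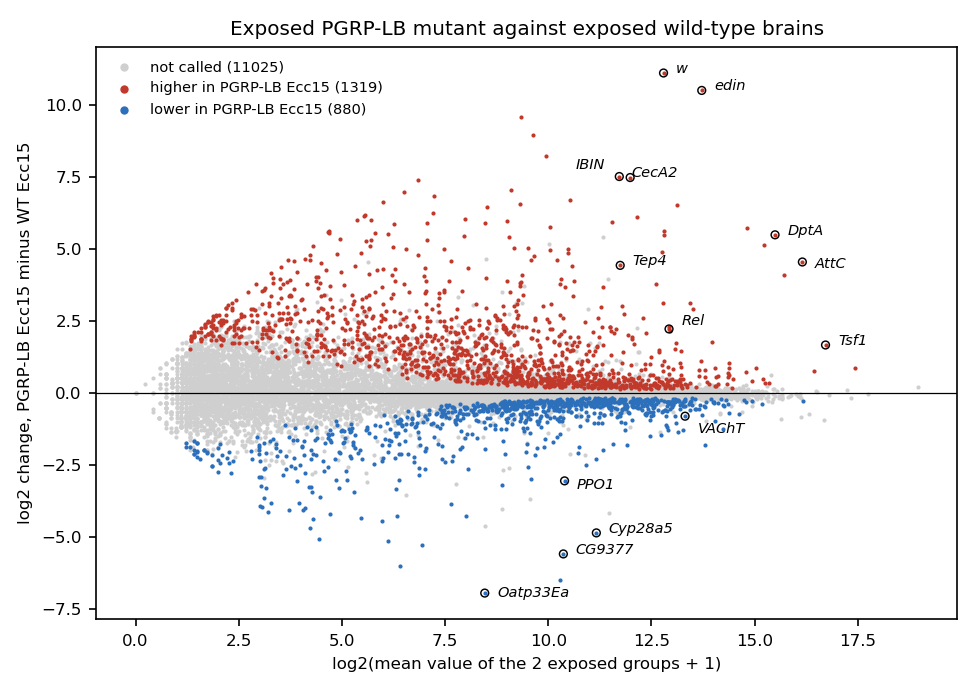
Each point is 1 of the 13224 genes tested, placed by its mean value over both exposed groups (horizontal axis, log2) and by its log2 change, PGRP-LB Ecc15 minus WT Ecc15 (vertical axis). The 1319 genes called higher are red, the 880 called lower are blue, and the rest are grey; w and edin stand highest and Oatp33Ea lowest.

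The gene that names the mutant was examined first. PGRP-LB (3R, 11452849 to 11460552, minus strand in the BDGP6.54 annotation) had values of 694, 1379 and 730.4 in the PGRP-LB Ecc15 libraries, against 332, 258 and 221 in WT Ecc15 and 166, 121 and 152 in WT control. It was higher in the mutant, by a log2 change of 1.73 (SE 0.27, limma adjusted p = 0.0021). The labels do not say which part of the gene is altered, so its total does not check the label. CG17230 overlaps it on the opposite strand, and whether reads were counted by strand is not stated.

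Antimicrobial peptide genes were higher in mutant brains without exception among those measured. All 14 tested members were called higher in PGRP-LB Ecc15, where 9.97% of all genes were, with a median log2 change of 5.07 against 0.01 over all genes. Another listed gene, Anp, had a mean under 1 and was not tested. Together the peptides took 1.72, 2.87 and 1.49% of all normalized counts in PGRP-LB Ecc15, against 0.115, 0.139 and 0.0391% in WT Ecc15 and 0.00227, 0.0029 and 0.00437% in WT control. The mean share was 20.8-fold that of WT Ecc15, and the exact two-sided permutation test gave p = 0.1, the smallest value 3 libraries against 3 allow. All 14 were called in every scaling, filter and pseudocount tried and without any 1 library.

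Diptericin A (DptA), a peptide active against Gram-negative bacteria and a standard readout of the Imd pathway, had values of 74611, 136138 and 59953 in PGRP-LB Ecc15, against 3122, 2395 and 863 in WT Ecc15 and 26.8, 39.6 and 25.7 in WT control. Its lowest mutant library was 19.2 times its highest WT Ecc15 library, and the fold was 45.5 (log2 change 5.51, SE 0.46, limma adjusted p = 7.37e-05). Diptericin B had 82122, 150056 and 69202 in PGRP-LB Ecc15 and 6641, 9743 and 2579.5 in WT Ecc15, 17.2-fold higher in the mutant. Drosocin (Dro), a proline-rich peptide, reached 59403, 109962 and 54244 in PGRP-LB Ecc15, against 2741, 2807 and 1001 in WT Ecc15. The exposed groups did not overlap for any of these genes.

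The attacins, glycine-rich proteins directed at Gram-negative bacteria, were all called higher. Attacin D (AttD), which lacks the secretion signal of its relatives, had values of 19165, 19395 and 13751 in PGRP-LB Ecc15, against 218, 351 and 81.0 in WT Ecc15 and 1.98, 1.98 and 11.9 in WT control. That is a log2 change of 6.54 (SE 0.63, limma adjusted p = 0.000162). AttA differed by a log2 change of 6.13, AttB by 5.76 and AttC by 4.56, with AttC at 91805, 212614 and 112424 in PGRP-LB Ecc15 and 9064, 10930.5 and 1672 in WT Ecc15. AttA and AttB are near-identical neighbours, so reads may be split between them and their separate values are uncertain.

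Cecropins, short helical peptides encoded in one cluster on 3R, followed with log2 changes of 5.64 for CecA1, 7.53 for CecA2, 4.97 for CecB and 3.39 for CecC. CecA2 had values of 6693, 8993 and 4457 in PGRP-LB Ecc15, against 50.6, 40.5 and 18.8 in WT Ecc15 and 1.98, 0.99 and 0.99 in WT control (limma adjusted p = 5.03e-06). CecA1 and CecA2 are near-identical as well, and their separate values are uncertain for the same reason. Defensin (Def) had a log2 change of 4.92, whereas the peptides with the smallest differences were Drosomycin (Drs), the antifungal peptide best known as a Toll target, at 3.14, and Metchnikowin (Mtk) at 2.30. Mtk had 7974, 21974 and 9053 in PGRP-LB Ecc15 and 1786, 3301 and 2242 in WT Ecc15, so these groups were separate too. Stacl overlaps Mtk on the same strand, and reads may be shared between them.

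Among the 14 peptides, PGRP-LB Ecc15 library S2 was the highest of its group for 13 and S3 the lowest for 12, while WT Ecc15 library S3 was the lowest of its group for 13. Mutant library S2 also held the most yolk protein RNA, a product of fat body and ovary, at 0.2, 1.65 and 0.601% of normalized counts in PGRP-LB Ecc15 libraries S1 to S3, against 0.852, 1.29 and 1.14% in WT Ecc15. Fat body markers as a whole averaged 9.63, 10.89 and 10.04 in PGRP-LB Ecc15 and 10.36, 10.56 and 10.36 in WT Ecc15 (mean log2(value + 1) of 18 genes, exact two-sided permutation p = 0.6). By limma none of the 18 was called, with 2 higher and 2 lower at an unadjusted p under 0.05. Their log2 changes lay above 0 for 7 and below 0 for 11, from -3.1 to 1.9. Without PGRP-LB Ecc15 library S2, 3 were called lower. With the 6 exposed libraries alone, a pseudocount of 5 or no filter on low values, 1 was called higher. Without WT Ecc15 library S2 or WT control library S3, 1 was called higher as well, and 2 with sample weights. Lsp2, a storage protein of the fat body, stood at 8.08, 228 and 10.1 in PGRP-LB Ecc15 and 363, 619 and 70.1 in WT Ecc15. It was called lower without PGRP-LB Ecc15 library S2 (log2 change -4.65, adjusted p = 0.00742). PGRP-LB Ecc15 library S2 was thus highest in both fat body markers and most peptides. The lowest fat body mean of that group was in S1, whereas S3 was lowest for most peptides. In WT Ecc15, S1 and S3 had the same fat body mean (10.36), and S3 was lowest for most peptides. The part of attached fat body in the peptide values was not tested.

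Other short peptides induced by infection showed both very large differences and none, with 3 of 7 called higher (42.9%, against 9.97% of all genes). Edin, a secreted peptide of Gram-negative infection, had values of 22807, 39747 and 18301 in PGRP-LB Ecc15, against 30.7, 19.7 and 6.92 in WT Ecc15 and 4.96, 5.94 and 3.96 in WT control. The mutant libraries thus stood apart from both wild-type groups, and the log2 change between the exposed groups was 10.52 (SE 0.47, limma adjusted p = 1.81e-06). Oatp74D overlaps edin on the same strand and was not called (log2 change 0.27). IBIN, a short peptide gene induced by several infections, had 3989.8, 13807 and 6366 in PGRP-LB Ecc15 and 94.2, 30.6 and 18.8 in WT Ecc15. Listericin stood at 12001, 14659 and 7737 in PGRP-LB Ecc15, against 1607, 384 and 843 in WT Ecc15, a log2 change of 3.78. The other 4 genes of that list, among them IMPPP and CG33470, were not called, with log2 changes between -0.17 for CG30285 and 2.49 for CG13749. CG13749 was called higher without WT control library S1 (adjusted p = 0.0371), with the 6 exposed libraries alone (adjusted p = 0.041) and with a pseudocount of 5 (adjusted p = 0.0303). Without PGRP-LB Ecc15 library S1, 4 of the 7 genes were also called higher, CG13749 not among them.

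**Figure D2:**
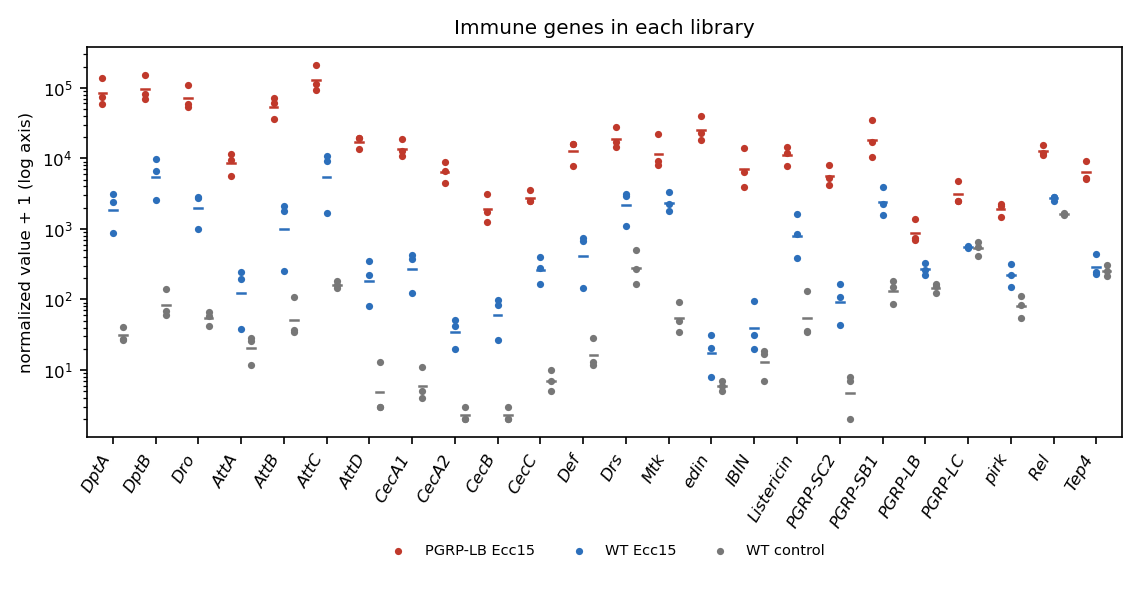
Normalized value plus 1 (log axis) of 24 immune genes in each library; points are libraries, short lines their geometric means, and each gene has PGRP-LB Ecc15 (red) left of WT Ecc15 (blue) and WT control (grey). The red points lie above the blue points for every gene shown, and for PGRP-LC and Tep4 the blue points overlap the grey ones.

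Genes for peptidoglycan recognition were higher at the level of amidases, receptors and inhibitors alike. Of the 6 amidase genes 4 were called higher (66.7%, PGRP-LB itself among them), and of the 7 sensors and decoys 4 (57.1%). The share over all genes was 9.97%, and none was lower in either list. The secreted amidase PGRP-SC2 had values of 4233, 8178 and 5296 in PGRP-LB Ecc15, against 107, 167 and 42.5 in WT Ecc15 (log2 change 5.94, limma adjusted p = 0.000216). PGRP-SB1, another secreted amidase, was 7.64-fold higher, and PGRP-SC1b had 76.8, 116 and 56.7 in PGRP-LB Ecc15 and 5.95, 0 and 1.98 in WT Ecc15. PGRP-SC1a and PGRP-SB2 stood below 10 in all libraries and were not called.

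PGRP-LC, the membrane receptor of the Imd pathway, had values of 2477, 4808 and 2494 in PGRP-LB Ecc15, against 568, 549 and 528 in WT Ecc15 and 562, 651 and 414 in WT control. WT Ecc15 lay within the range of WT control, while the mutant was 5.64-fold higher than WT Ecc15 (limma adjusted p = 0.0002). PGRP-LF, a decoy that inhibits PGRP-LC, was 5.84-fold higher, PGRP-SA, a circulating receptor of the Toll pathway, 6.19-fold and PGRP-SD, a circulating recognition protein, 8.85-fold. The intracellular receptor PGRP-LE had 626, 656 and 593 in PGRP-LB Ecc15 and 559, 568 and 541 in WT Ecc15, and PGRP-LA 1030.3, 1124 and 907 in PGRP-LB Ecc15 and 885, 789 and 780.5 in WT Ecc15. Both were not called (adjusted p = 0.208 and 0.103), although their groups did not overlap. Without WT control library S3, PGRP-LA was called (adjusted p = 0.0482).

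Inside the Imd pathway the difference was limited to a few genes. Of 20 tested members 3 were called higher (15%) and 1 lower (5%), against 9.97% and 6.65% over all genes. The list's median log2 change was 0.07. Relish (Rel), the NF-κB factor, had values of 11904, 15467 and 11221 in PGRP-LB Ecc15, against 2861, 2789 and 2464 in WT Ecc15 and 1667, 1611 and 1597 in WT control, a log2 change of 2.24 between the exposed groups (SE 0.11, limma adjusted p = 3.73e-06). Nmdmc overlaps Rel on the same strand, so reads may be shared between them. Pirk, an inhibitor that removes PGRP-LC from the cell surface, had 2079.8, 2249.7 and 1452 in PGRP-LB Ecc15 and 320.2, 222 and 147 in WT Ecc15, 8.62-fold higher. The kinase subunit key was higher by a log2 change of 0.19 and the ubiquitin-conjugating enzyme ben lower by -0.22, both close to the threshold (adjusted p = 0.0432 and 0.0332). The call of key was lost in 13 of 20 alternatives, among them without PGRP-LB Ecc15 library S1 or S2, any WT Ecc15 library or WT control library S1 or S2, and that of ben without PGRP-LB Ecc15 library S2 or S3 or any WT Ecc15 library (adjusted p up to 0.155 and 0.118). The adaptor imd (418, 649 and 458 in PGRP-LB Ecc15 and 355, 413 and 436 in WT Ecc15), the caspase Dredd (0.20 log2) and the kinase Tak1 (0.15 log2) were not called.

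Part of the Toll pathway genes were called higher. Of 19 tested members 9 were called higher (47.4%, against 9.97% of all genes), none lower and 10 were not called. The median log2 change was 0.42. The serine protease Hayan had values of 664, 1659 and 884 in PGRP-LB Ecc15, against 181, 163 and 117 in WT Ecc15 (log2 change 2.71). The protease grass differed by 1.57, the Toll ligand spz by 1.32 (limma adjusted p = 0.000539) and the recognition protein GNBP1 by 0.99. The adaptor Myd88, the inhibitor cact and the factor dl were higher by smaller amounts (0.42, 0.28 and 0.66 log2), and the receptor Tl was not called (log2 change 0.07, adjusted p = 0.443). The number called fell to 5 without PGRP-LB Ecc15 library S2 or WT Ecc15 library S3 and to 4 without WT Ecc15 library S2. Without the last of these all of Myd88, cact and dl lost their calls, and Myd88 and dl also without PGRP-LB Ecc15 library S2 or either other WT Ecc15 library, and dl without PGRP-LB Ecc15 library S3 (adjusted p up to 0.0654, 0.0606 and 0.101).

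Bomanins, secreted peptides that depend on Toll, were called higher for 8 of 12 tested members (66.7%, against 9.97% of all genes) and lower for none. Their median log2 change was 1.56. BomS1 had values of 3688, 6371 and 3231 in PGRP-LB Ecc15, against 594, 331 and 734 in WT Ecc15 and 391, 345 and 292 in WT control (log2 change 3.01, limma adjusted p = 0.000253). BomBc1 had the widest difference, at 1141, 1400.4 and 1162 in PGRP-LB Ecc15 and 167, 25.7 and 80.0 in WT Ecc15. For BomS1 the WT Ecc15 libraries overlapped WT control, whereas all mutant libraries lay above both. BomT1 and BomS3 were higher by log2 changes of 3.07 and 2.17. The number called was 5 without PGRP-LB Ecc15 library S2 or without either S1 or S2 of WT Ecc15.

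Thioester-containing proteins, relatives of vertebrate complement, were called higher for 3 of 5 members (60%, against 9.97% of all genes). Tep4 had values of 5297, 9192 and 5167 in PGRP-LB Ecc15, against 440.1, 225 and 242 in WT Ecc15 and 250.0, 306 and 213 in WT control, and was 21.8-fold higher (limma adjusted p = 2.01e-05). Tep2 and Tep3 were 2.72-fold and 2.66-fold higher. Tep1 stood at 91.9, 288 and 196 in PGRP-LB Ecc15 and 148, 242 and 121 in WT Ecc15, with 29.8, 30.7 and 26.7 in WT control, and was not called between the exposed groups (adjusted p = 0.91).

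Serpins, inhibitors of serine protease cascades, were called higher for 10 of 25 tested members (40%) and lower for 1 (4%). Over all genes the shares were 9.97% and 6.65%. Spn27A, an inhibitor of melanization, had 2211, 2477 and 2073 in PGRP-LB Ecc15, against 792, 795 and 782 in WT Ecc15 (log2 change 1.51, limma adjusted p = 0.000225). Spn42Da and Spn28Dc were 2.6-fold and 3.45-fold higher. Spn77Ba, which restrains melanization in the airways, was 3.21-fold higher. The one serpin called lower, Spn85F, had 5.05, 6.09 and 5.07 in PGRP-LB Ecc15 and 56.5, 51.3 and 43.5 in WT Ecc15.

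Cytokine signalling differed in part, with 21.4% of the JAK-STAT and Turandot genes tested called higher, against 9.97% of all genes. In the JAK-STAT and Turandot list 3 of 14 tested genes were called higher: the cytokine upd3 with low values (22.2, 43.6 and 41.5 in PGRP-LB Ecc15, 6.94, 4.94 and 3.95 in WT Ecc15), its receptor dome (log2 change 0.34) and vir-1, a gene induced by virus infection, with 18428, 18669 and 17706 in PGRP-LB Ecc15 and 10613, 10378 and 9864 in WT Ecc15. None of the 5 Turandot stress genes tested was called by limma, nor passed an unadjusted p of 0.05.

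Of 18 genes of the JNK and AP-1 list 9 were called higher (50%) and 2 lower (11.1%), against 9.97% and 6.65% over all genes. Without WT Ecc15 library S3, 6 were called higher and 1 lower. The AP-1 subunits kay (Fos) and Jra (Jun) were 1.5-fold and 1.34-fold higher, where puc, the feedback phosphatase of the pathway, was 1.32-fold higher. Ets21C, a transcription factor of stress responses, had 249, 243 and 255 in PGRP-LB Ecc15, against 78.3, 56.3 and 71.1 in WT Ecc15 (log2 change 1.86, limma adjusted p = 0.000143). The matrix metalloprotease Mmp1 was 2.18-fold higher. The ligand egr, the TNF of flies, was lower, at 941, 991 and 918 in PGRP-LB Ecc15 and 1437, 1527 and 1327 in WT Ecc15 (log2 change -0.59, adjusted p = 0.000495), as was Gadd45 at a log2 change of -0.45, a call lost without any 1 exposed library, without WT control library S2, without the filter on low values and without the variance trend (adjusted p up to 0.142). In WT control egr stood at 1423, 1535 and 1407, and Ets21C at 77.4, 62.4 and 79.2, so WT Ecc15 overlapped WT control in both genes.

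Iron genes were called higher for 5 of 9 tested members (55.6%, against 9.97% of all genes) and lower for none. Transferrin 1 (Tsf1), the iron carrier of the haemolymph, had values of 157047, 199892 and 136877 in PGRP-LB Ecc15, against 47660.4, 59245 and 46151 in WT Ecc15 and 34277, 35934 and 29768 in WT control, 3.21-fold higher (limma adjusted p = 0.000102). Tsf3 had 1459.6, 1262 and 408 in PGRP-LB Ecc15 and 125, 107 and 99.8 in WT Ecc15, with mutant library S3 well below the other two. The metal transporter Mvl was 1.61-fold higher. The number called was 3 without PGRP-LB Ecc15 library S3 or either S1 or S2 of WT Ecc15, without the variance trend and on the scale of the deposited values. Among reactive oxygen genes, the secreted catalase Irc was 3.36-fold higher and the extracellular superoxide dismutase Sod3 was lower, at 4407, 5145 and 4413 in PGRP-LB Ecc15 and 10150.0, 11346 and 9755 in WT Ecc15 (log2 change -1.16, adjusted p = 0.00751). The peroxiredoxin Prx2540-2 was 3.21-fold higher, and the remaining 8 of the 11 genes were not called. Of the reactive oxygen genes 18.2% were called higher and 9.09% lower, against 9.97% and 6.65% over all genes.

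Stress genes of protein folding were called in part. Of 19 genes of secretion and the unfolded protein response 2 were called higher (10.5%, near the 9.97% over all genes). They were the transcription factor Xbp1 (log2 change 0.36, adjusted p = 0.00219) and the chaperone Gp93 (log2 change 0.39, adjusted p = 0.0285). Of 17 heat shock genes 4 were called higher (23.5%) and 2 lower (11.8%), against 9.97% and 6.65% over all genes. Hsp70Aa had 101, 287 and 102 in PGRP-LB Ecc15, against 31.7, 18.8 and 17.8 in WT Ecc15, and shares near-identical copies, so that its separate value is uncertain. The co-chaperone stv was higher by a log2 change of 0.40 and Hsp67Ba lower by -0.80 (adjusted p = 0.0213). Gp93 lost its call without any 1 exposed library other than WT Ecc15 library S2 and without the variance trend, and Hsp67Ba without PGRP-LB Ecc15 library S2 or S3 or WT Ecc15 library S2 or S3, under which no heat shock gene was called lower (adjusted p up to 0.0987 and 0.0816).

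**Figure D3:**
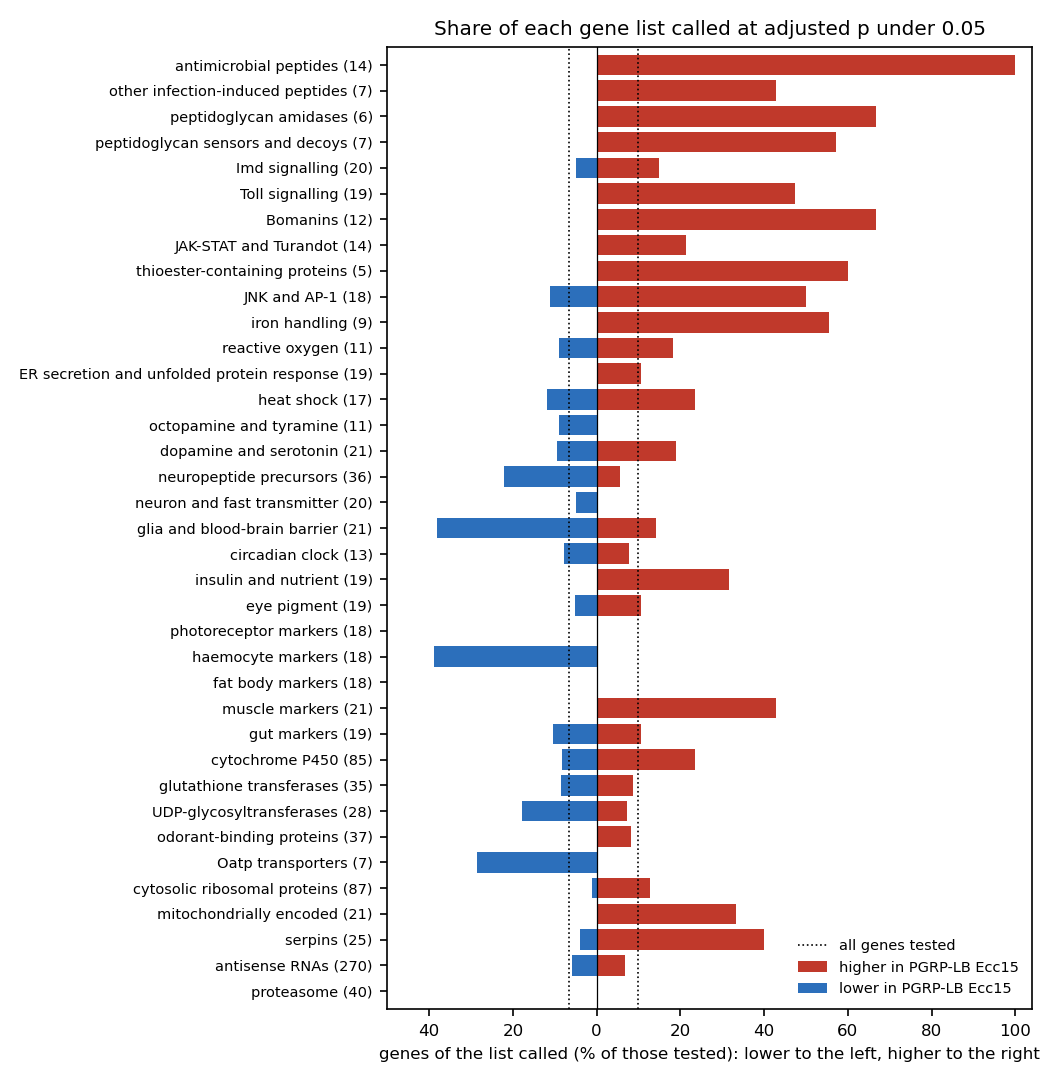
For each gene list (number of genes tested in brackets), the bar to the right gives the percentage of tested genes called higher in PGRP-LB Ecc15 and the bar to the left the percentage called lower; dotted lines mark the 9.97% higher and 6.65% lower over all genes tested. The antimicrobial peptides reach 100%, and the longest bars to the left belong to the haemocyte markers, the glial list and the Oatp transporters.

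Genes of neuronal identity and fast transmission hardly differed. Of 20 tested members none was called higher, against 9.97% of all genes, and 1 was called lower (5%, near the 6.65% of all genes). The 1 called was the vesicular acetylcholine transporter VAChT, which loads acetylcholine into synaptic vesicles. VAChT had values of 7624, 7243 and 7524 in PGRP-LB Ecc15, against 12996, 12639.9 and 13129.6 in WT Ecc15 and 11845, 12172 and 11552 in WT control, lower by 1.73-fold (log2 change -0.79, SE 0.05, limma adjusted p = 1.01e-05). It shares its start and strand in the annotation with ChAT, the enzyme that makes acetylcholine, so reads could be counted for either. ChAT had 7837, 7522 and 8347 in PGRP-LB Ecc15 and 7183, 7174 and 7377 in WT Ecc15 and was not called (log2 change 0.12, adjusted p = 0.142). The synaptic vesicle protein nSyb and the acetylcholinesterase Ace had log2 changes of -0.14 and -0.11, and neither was called.

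Glial genes were called lower more often than higher. In the list of glial and blood-brain barrier genes 8 of 21 were called lower and 3 higher, where 6.65% and 9.97% of all genes were, and the median log2 change was -0.15. Mdr65, an efflux pump of the blood-brain barrier, had values of 1719, 2327 and 2549.9 in PGRP-LB Ecc15, against 5428, 5229.7 and 5216 in WT Ecc15 and 5066, 6288 and 5274 in WT control (log2 change -1.29, SE 0.14, limma adjusted p = 0.000268). Wrapper, a surface protein of cortex glia, had 2740.4, 2130.0 and 2392 in PGRP-LB Ecc15 and 4825, 5544 and 4589 in WT Ecc15 (log2 change -1.05). In both genes the WT Ecc15 libraries lay within or next to the WT control range and every mutant library lay below it.

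Zyd, a cation exchanger of cortex glia, was lower by a log2 change of -0.64, alrm, a marker of astrocyte-like glia, by -0.53, and the gap junction proteins Inx2 and ogre by -0.52 and -0.44. The glial genes called higher were Gli, a junction protein, at 869, 885 and 867 in PGRP-LB Ecc15 and 476, 329 and 498 in WT Ecc15, the citrate transporter Indy (log2 change 0.36) and drpr, the receptor with which glia engulf debris (log2 change 0.34, adjusted p = 0.00345). Indy lost its call without any 1 exposed library and without the variance trend (adjusted p up to 0.0962). In bulk tissue, fewer cells of a type and less RNA per cell cannot be told apart. With any 1 library left out, between 7 and 9 genes of the list were called lower.

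Neuropeptide precursor genes were called lower more often than higher. Of 36 tested members 8 were called lower and 2 higher, where 6.65% and 9.97% of all genes were, with a median log2 change of -0.33. SIFa, a peptide of a few neurons that shapes feeding and sleep, had values of 361, 504 and 535 in PGRP-LB Ecc15, against 817, 855 and 1075 in WT Ecc15 and 985, 1211 and 1074 in WT control (log2 change -0.98, limma adjusted p = 0.00311). The diuretic hormone Dh31 had 3930.2, 3745 and 4183 in PGRP-LB Ecc15 and 5814, 6088 and 5725 in WT Ecc15, and ITP, the ion transport peptide, 6163, 6769 and 6182 in PGRP-LB Ecc15 and 9041, 9677 and 9241 in WT Ecc15. Bace overlaps Dh31 on the same strand. Capa, which encodes osmoregulatory peptides, was lower by a log2 change of -1.03, Gpa2, a glycoprotein hormone subunit, by -0.73 and Ms, myosuppressin, by -0.54. Natalisin and Dh44 were the other two called lower, at -0.44 and -0.30.

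Tachykinin (Tk), a peptide of brain and gut, was the clearest of those called higher, with 4781, 4625 and 5051 in PGRP-LB Ecc15, against 3335, 3563 and 3556 in WT Ecc15 (log2 change 0.47, adjusted p = 0.000905). Allatostatin A (AstA) was higher by 0.23. The adipokinetic hormone gene Akh, made in the corpora cardiaca beside the brain, had 21.2, 9.13 and 18.2 in PGRP-LB Ecc15 and 822, 1923 and 10.9 in WT Ecc15, high in only a pair of wild-type libraries, and was not called (log2 change -4.03, adjusted p = 0.117). Without WT Ecc15 library S3 it was called lower (log2 change -6.27, adjusted p = 0.000466). The number called lower was 4 without PGRP-LB Ecc15 library S1 and 5 without PGRP-LB Ecc15 library S3 or WT Ecc15 library S2. Dh44 lost its call without any 1 exposed library and Ms without any of them but PGRP-LB Ecc15 library S2. Capa lost it without PGRP-LB Ecc15 library S1 or S3 or WT Ecc15 library S2, natalisin without PGRP-LB Ecc15 library S1, and AstA without PGRP-LB Ecc15 library S1 or S2 or WT Ecc15 library S1 or S3. Over all alternatives the adjusted p reached 0.136 for Dh44, 0.157 for Ms, 0.0618 for Capa, 0.0561 for natalisin and 0.0816 for AstA.

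**Figure D4:**
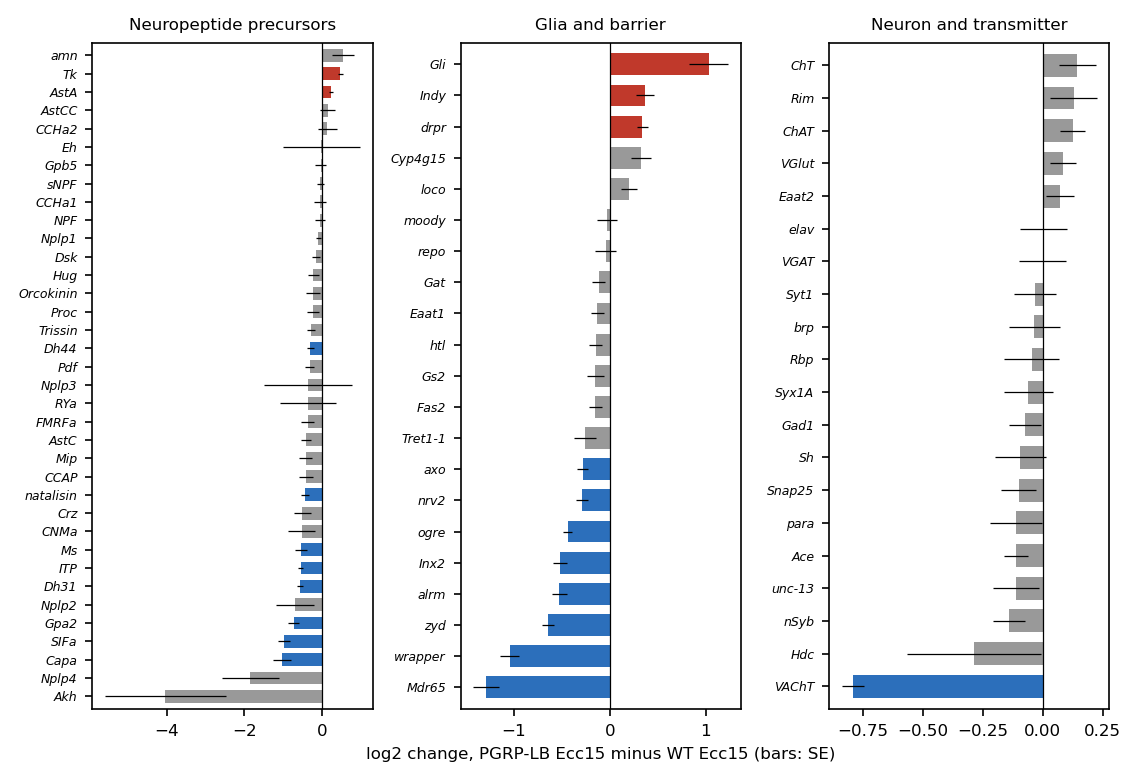
Log2 change, PGRP-LB Ecc15 minus WT Ecc15, with its standard error for neuropeptide precursors, glial and blood-brain barrier genes, and neuronal and transmitter genes (the panels have different horizontal scales). Red bars were called higher, blue bars lower and grey bars were not called; VAChT is the one called gene in the right panel.

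Octopamine, the insect counterpart of noradrenaline, was represented by its synthetic enzymes Tdc2 and Tbh and its receptors. Tdc2, the neuronal tyrosine decarboxylase, had values of 781, 954 and 996 in PGRP-LB Ecc15, against 931, 1071 and 969 in WT Ecc15. Tbh, the tyramine hydroxylase, had 3101, 2896 and 3177 in PGRP-LB Ecc15 and 3214, 3357 and 2974 in WT Ecc15, and the receptor Oamb 3392, 3423 and 3781 in PGRP-LB Ecc15 and 3725, 3546 and 3537 in WT Ecc15. None of these was called (log2 changes -0.13, -0.06 and -0.03, adjusted p = 0.447, 0.607 and 0.786), and the groups overlapped in each. Of the 11 genes of the list 1 was called, the receptor Octalpha2R, lower by a log2 change of -0.34 (adjusted p = 0.0394), a call lost without any 1 exposed library, without WT control library S2 and without the variance trend (adjusted p up to 0.134). The 1 called gene was 9.09% of the list, near the 6.65% called lower over all genes. Without WT Ecc15 library S1, 1 gene of the list was called higher.

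Some genes of dopamine metabolism differed, in both directions. Of 21 dopamine and serotonin genes tested 4 were called higher (19%) and 2 lower (9.52%), where 9.97% and 6.65% of all genes were. The other 15 were not called, and the list's median log2 change was 0.08. Ddc, the decarboxylase that makes dopamine and serotonin, had 28177, 24847 and 25304 in PGRP-LB Ecc15, against 17036, 16074 and 15186 in WT Ecc15 (log2 change 0.70, limma adjusted p = 0.00174). Ebony (e), which couples dopamine to β-alanine, and black (b), which makes β-alanine, were 1.75-fold and 4.99-fold higher, with b at 3256, 4410.1 and 4748 in PGRP-LB Ecc15 and 648, 611 and 1383 in WT Ecc15. Punch (Pu), which starts the synthesis of the cofactor of tyrosine hydroxylase, was 2.78-fold higher with wide spread. The dopamine transporter DAT was lower, at 1110.1, 1146 and 1364 in PGRP-LB Ecc15 and 1686, 1774 and 1649.8 in WT Ecc15, and AANAT1, which acetylates monoamines, was lower by a log2 change of -0.36. Tyrosine hydroxylase itself (ple) had 6621, 3099 and 2015 in PGRP-LB Ecc15 and 1826, 1500.0 and 1557 in WT Ecc15, groups that did not overlap, and was not called (log2 change 1.09, adjusted p = 0.058). It was called higher without PGRP-LB Ecc15 library S1 (log2 change 0.62, adjusted p = 0.0492), without S3 of that group (log2 change 1.48, adjusted p = 0.00957) and with sample weights (adjusted p = 0.046). The calls of Pu and DAT were both lost without PGRP-LB Ecc15 library S1 or S2 or WT Ecc15 library S1 or S2 (adjusted p up to 0.0838 and 0.073).

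In the circadian clock list 1 gene was called in each direction among 13 tested (7.69% each, near the shares over all genes). The clock repressor per had 1479, 1516 and 1736 in PGRP-LB Ecc15, against 692, 940.1 and 826 in WT Ecc15 (log2 change 0.95, limma adjusted p = 0.000501), and the blue light receptor cry was lower by a log2 change of -0.47, a call lost without PGRP-LB Ecc15 library S1 or S3 or WT Ecc15 library S3 (adjusted p up to 0.0581). Without WT control library S1 or S3, which share in the estimate of spread, 2 and 3 clock genes were called higher. The hour of dissection is not given in the sources used here. Among insulin and nutrient genes 6 of 19 were called higher (31.6%, against 9.97% of all genes). The insulin receptor InR stood at 2983, 2892 and 3116 in PGRP-LB Ecc15 and 1759, 1919.7 and 2081 in WT Ecc15. The others were the lipases bmm and Lip4 (log2 changes 0.72 and 1.19), the kinase Akt1 (0.29 log2), the translation inhibitor Thor (1.12 log2) and Pepck2. Pepck2, a gluconeogenic enzyme, had 101, 663 and 237 in PGRP-LB Ecc15 and 23.8, 17.8 and 18.8 in WT Ecc15. Lip4 lost its call without PGRP-LB Ecc15 library S2 or WT Ecc15 library S3, Akt1 without PGRP-LB Ecc15 library S1 or either S2 or S3 of WT Ecc15, and Thor without PGRP-LB Ecc15 library S1 or S2 or WT Ecc15 library S1 or S2 (adjusted p up to 0.0612, 0.0762 and 0.0997).

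The single largest difference was in white (w), an ABC transporter that carries pigment precursors into eye cells. It had values of 12083, 19205 and 11274 in PGRP-LB Ecc15, against 3.96, 4.94 and 6.92 in WT Ecc15 and 4.96, 5.94 and 12.9 in WT control (log2 change 11.13, SE 0.35, limma adjusted p = 4.21e-07). Kirre overlaps w on the opposite strand. The libraries labelled wild type thus held almost no w RNA, with or without Ecc15. Of the other 18 eye pigment genes tested, Pu was called higher and cm, a subunit of a vesicle adaptor, lower (log2 change -0.34). Opsin and phototransduction genes, which a dissected brain carries with retina attached, averaged 12.07, 12.05 and 10.36 in PGRP-LB Ecc15, 12.08, 11.69 and 12.71 in WT Ecc15 and 13.01, 13.29 and 11.04 in WT control (mean log2(value + 1) of 18 genes). None of the 18 was called by limma, with 1 higher and 0 lower at an unadjusted p under 0.05. Without PGRP-LB Ecc15 library S1 or S2 or WT Ecc15 library S1 or S2, Pu was not called.

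Other genes at the extremes stood near 0 in 1 genotype or far apart between both. Oatp33Ea, an organic anion transporter, had 2.02, 11.2 and 4.05 in PGRP-LB Ecc15, against 699.8, 689 and 702 in WT Ecc15 and 667, 681 and 833 in WT control (log2 change -6.94, limma adjusted p = 1.04e-05). Its relative Oatp58Dc was lower by a log2 change of -0.55. The cytochrome Cyp28a5 had 148, 175 and 139 in PGRP-LB Ecc15 and 4443, 4720.2 and 4151 in WT Ecc15, with the smallest adjusted p of all genes tested (5.21e-08). The gustatory receptor gene Gr59d had 0, 1.01 and 0 in PGRP-LB Ecc15 and 46.6, 39.5 and 37.5 in WT Ecc15. For Oatp33Ea, Cyp28a5 (at 5262, 4654 and 4137 in WT control) and Gr59d (at 53.6, 26.7 and 41.6 in WT control) the WT Ecc15 libraries overlapped WT control.

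The 5 other protein-coding genes among the 12 with the largest lower values, CG9377, CG13978, CG33483, CG13704 and CG13488, had log2 changes between -5.58 and -4.27, and the 4 noncoding RNAs asRNA:CR44291, asRNA:CR44030, lncRNA:CR45435 and lncRNA:CR45761 between -5.98 and -4.35. Antisense RNAs share their locus with a gene on the other strand, so without a stated strand setting their values are uncertain. CG9377 had 75.8, 31.5 and 55.7 in PGRP-LB Ecc15, against 2771, 3303 and 1674 in WT Ecc15 and 3713, 886 and 1320.0 in WT control.

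On the higher side the 12 largest changes were w, the immune genes edin, CecA2 and IBIN, and 8 others. CG13492 had 1050.5, 1889 and 939 in PGRP-LB Ecc15 and 0, 0.987 and 0.988 in WT Ecc15, and CG42697 had 1792, 1572 and 2512 in PGRP-LB Ecc15, against 7.93, 2.96 and 5.93 in WT Ecc15. GEFmeso overlaps CG42697 on the same strand. The piRNA endonuclease gene zuc, known for silencing transposons in the germ line, had 189.9, 76.1 and 273 in PGRP-LB Ecc15, against 0, 0 and 0.988 in WT Ecc15 (log2 change 6.98, adjusted p = 6.81e-05). CG14566 and CG14572, neighbours on 3L, and lncRNA:CR45284 were near 0 in both wild-type groups, with CG14572 at 308, 209 and 372 in PGRP-LB Ecc15 and 0.991, 0.987 and 2.96 in WT Ecc15. CG43920 had 1647, 4837 and 2246 in PGRP-LB Ecc15 and 105, 22.7 and 4.94 in WT Ecc15. CG9759 had 2456, 2104 and 167 in PGRP-LB Ecc15, against 5.95, 0 and 0 in WT Ecc15, so mutant library S3 stood far below the other two.

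Markers of cell types that can stay attached to a dissected brain were compared library by library. Haemocyte markers, the genes of circulating immune cells, averaged 9.11, 9.94 and 9.55 in PGRP-LB Ecc15, against 10.18, 10.48 and 10.47 in WT Ecc15 and 10.05, 9.96 and 9.77 in WT control (mean log2(value + 1) of 18 genes). The mutant libraries lay below all WT Ecc15 libraries (exact two-sided permutation p = 0.1, the smallest possible). By limma 7 of the 18 genes were called lower (38.9%, against 6.65% of all genes) and none higher. PPO1, a prophenoloxidase of crystal cells, had 141, 557 and 270.5 in PGRP-LB Ecc15, against 1568, 2973 and 2562 in WT Ecc15 and 1791, 1601 and 1421 in WT control (log2 change -3.04, limma adjusted p = 0.00129). Hml, a clotting protein of plasmatocytes, had 2554, 4885 and 3664 in PGRP-LB Ecc15, against 9398, 11926 and 8262 in WT Ecc15 and 4497, 5183 and 4754 in WT control. For Hml the mutant libraries thus overlapped WT control, and WT Ecc15 lay above both. PPO2 and the scavenger receptor Sr-CI were lower by log2 changes of -2.08 and -1.88, and NimC1, a phagocytic receptor, by -1.67. The part of haemocyte RNA in the immune gene values was not tested.

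Muscle genes were called higher for 9 of 21 members (42.9%, against 9.97% of all genes), with a median log2 change of 1.75. The titin relative sls had 3783, 5045 and 3186 in PGRP-LB Ecc15, against 913, 303 and 953 in WT Ecc15 and 1143, 1779.6 and 425 in WT control (log2 change 2.61, adjusted p = 0.0114). Zasp66, a protein of the sarcomere's Z-disc, was 4.76-fold higher. Muscle markers averaged 9.46, 10.07 and 9.60 in PGRP-LB Ecc15, 8.51, 8.04 and 8.89 in WT Ecc15 and 9.19, 9.47 and 7.67 in WT control, so WT control overlapped both exposed groups. The number of muscle genes called was 5 without any 1 of PGRP-LB Ecc15 libraries S1 and S3 and WT Ecc15 library S3 and 4 without any 1 of the other exposed libraries, and 5 without the variance trend. Markers of gut enzymes averaged 3.56, 4.58 and 3.68 in PGRP-LB Ecc15 and 4.80, 4.64 and 2.89 in WT Ecc15. Of 19 tested 2 were called in each direction (10.5% each, against 9.97% higher and 6.65% lower over all genes). The amylases Amy-p and Amy-d of that list were higher, Amy-d at 1804, 3443 and 1745 in PGRP-LB Ecc15 and 188, 217 and 97.8 in WT Ecc15, and being near-identical copies they are uncertain one by one. Of the 2 gut genes called lower, Jon66Cii and LManII, neither kept its call without PGRP-LB Ecc15 library S1 or any 1 WT Ecc15 library, nor Jon66Cii without PGRP-LB Ecc15 library S2, nor LManII without PGRP-LB Ecc15 library S3 or WT control library S2 (adjusted p up to 0.0941 and 0.135). The part that attached tissue had in the other differences was not tested.

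**Figure D5:**
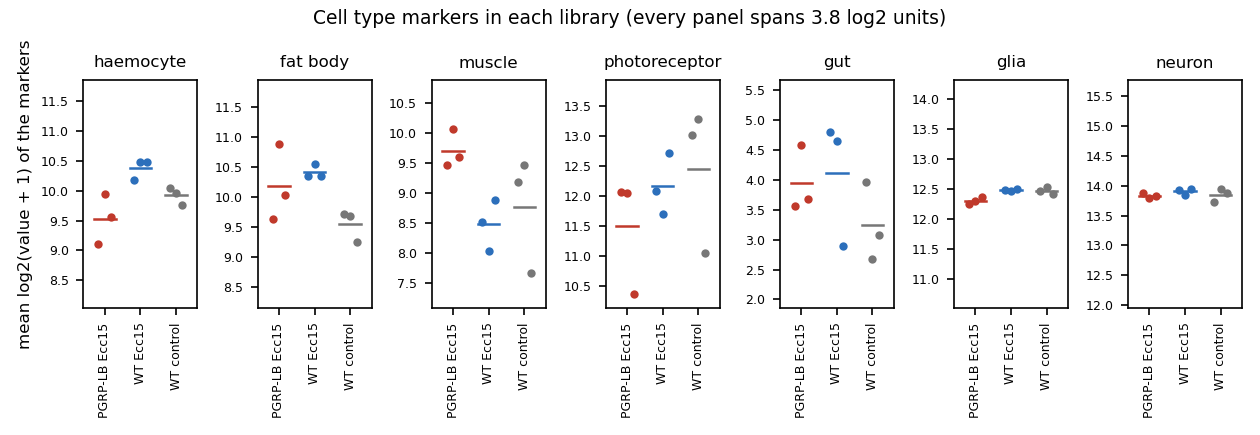
Mean log2(value + 1) over the tested markers of each cell type in each library (points) with group means (lines), PGRP-LB Ecc15 left, then WT Ecc15 and WT control; every panel spans the same log2 range. Haemocyte markers lie lower and muscle markers higher in all PGRP-LB Ecc15 libraries than in all WT Ecc15 libraries, and fat body markers are highest in PGRP-LB Ecc15 library S2.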

How the data were processed

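RNA of pooled brains was sequenced from poly(A) libraries with a stranded kit on 1 lane, per the labels' protocols. HISAT2 (version 2), HTSeq, featureCounts and DESeq2 are listed without roles in the submitters' processing notes; the build, the annotation and whether counting used strand are not stated there. The authors deposited normalized counts rounded to whole numbers (treated as scores), in a wild-type table and a mutant table that share the 3 control libraries; these were scaled separately, with control values 1.013 to 1.021 times higher in the wild-type table. The authors' fold ratios, log2 fold changes and p-values against control, deposited in the same tables, were not used. A library whose counts were rescaled and rounded cannot be given a count model, so limma 3.58.1 (R 4.3.3) was used with an intensity trend on log2(value + 1), in one fit of all 9 libraries.

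Tables were joined by gene, controls were taken from the wild-type table, and values were divided by median-of-ratios factors (0.985 to 1.013). Genes with a mean of at least 1 were tested (13224 of 17562), and p-values were adjusted over all of them (Benjamini-Hochberg). Reads per library were estimated from the steps of the low values, and no interval was computed from them. Locations come from Ensembl BDGP6.54 by symbol (16839 of 17562 IDs). The fit was tested on simulated data. The groups, gene lists and comparison were chosen with earlier results of these data known. Nothing in the labels says more of the replicates than that each is a pool of brains, so p-values measure the spread between these pools.

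Named genes are the 12 higher and 12 lower with the largest change (called, groups not overlapping, the higher group averaging at least 10), up to 4 per list with the smallest adjusted p, members of the immune lists, and PGRP-LB, w, DptA, AttA, AttD, pirk, Rel, Tdc2, Tbh, Oamb and repo. Genes named beyond that rule (Akh, AstA, Capa, DAT, Dh44, Gadd45, Gli, Gpa2, Indy, Inx2, Jra, Ms, Myd88, NimC1, Oatp74D, Spn85F, Tl, alrm, cact, dl, drpr, natalisin, ple, puc, Akt1, Thor and CG34324) were chosen after their values were seen.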

Additional observations from a re-analysis of the deposited data

How the results depend on the processing

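The 1319 higher and 880 lower calls were recomputed under 20 alternatives. Quantile normalization gave 1393 lower calls, and without 1 library the counts lay between 813 and 1499 higher and between 536 and 1011 lower, lowest without WT Ecc15 library S2. The other scalings, filters, pseudocounts and variance models kept both counts within 1.5 times. The antimicrobial peptide share of normalized counts kept its direction in every alternative, with a difference of 1.51 to 2.20 percentage points without 1 library and 1.27 without DptA and DptB. The haemocyte marker difference stayed below 0. The fat body marker difference lay between -0.59 and 0.034 (log2) without 1 library, highest without PGRP-LB Ecc15 library S1. Of 151 called genes followed 1 by 1 through the alternatives, 127 kept their call in all of them. Of 20 genes not called and followed in the same way, 5 (Akh, CG13749, Lsp2, PGRP-LA and ple) were called in at least 1 alternative. IMPPP, CG33470, PGRP-SC1a and PGRP-SB2 were not among the genes followed. Tep1 lay at -0.13 under quantile normalization and between -0.28 and 0.54 without 1 library, and repo between -0.15 and 0.038 without 1 library. No paired analysis was possible because the columns carry library numbers that match no label and the exposed groups share 1 replicate number. Rounded low values limit what can be seen of weakly expressed genes, for which log2 changes depend on the pseudocount, and no library of mutant brains without Ecc15 was analysed here.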

Other observations

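Of the metabolic gene families, cytochrome P450 genes were called higher for 20 of 85 tested members (23.5%) and lower for 7 (8.24%), where 9.97% and 6.65% of all genes were. The number higher was 12 without PGRP-LB Ecc15 library S2, 13 without PGRP-LB Ecc15 library S3 or WT Ecc15 library S3, and 9 without WT Ecc15 library S2. Cyp4d1 had values of 43.4, 51.8 and 32.4 in PGRP-LB Ecc15, against 2.97, 2.96 and 2.96 in WT Ecc15, and Cyp9h1 had 1646, 2249 and 2020.1 in PGRP-LB Ecc15 and 503, 614 and 378 in WT Ecc15. Under quantile normalization 12 P450 genes were called lower. Of 28 UDP-glycosyltransferases 2 were called higher (7.14%) and 5 lower (17.9%), among the lower Ugt35C1 (173, 294 and 177 in PGRP-LB Ecc15 and 1237, 1173 and 1323 in WT Ecc15) and Ugt317A1 (log2 change -1.53). Of 35 glutathione transferases 3 were called in each direction (8.57% each, near the shares over all genes), with 1 higher and 5 lower without PGRP-LB Ecc15 library S2 and 6 higher without WT control library S3. GstE1 was higher by a log2 change of 1.05 and GstE2 lower by -0.65.

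Of 87 cytosolic ribosomal protein genes 11 were called higher (12.6%, near the 9.97% over all genes) and 1 lower. Most differences were small and upward: 82 log2 changes lay above 0 and 5 below, with a median of 0.16 against 0.01 over all genes. RpLP0, a stalk protein of the ribosome, had 28151, 29435 and 28244 in PGRP-LB Ecc15, against 13016, 14392 and 13694 in WT Ecc15, and RpS2 and RpL8 were higher by log2 changes of 0.57 and 0.39. The count of higher ribosomal genes was 4 without PGRP-LB Ecc15 library S2 or WT Ecc15 library S1, 5 without PGRP-LB Ecc15 library S3 or WT Ecc15 library S3, 6 without WT Ecc15 library S2, 5 without the variance trend and 21 when the 6 exposed libraries were fitted alone. Of 21 mitochondrially encoded genes tested 7 were called higher (33.3%, against 9.97% of all genes). The mitochondrial share of normalized counts was 3.92, 4.11 and 3.63% in PGRP-LB Ecc15, 2.88, 2.75 and 3.18% in WT Ecc15 and 2.98, 3.51 and 3.69% in WT control. Cytochrome oxidase subunit mt:CoI had 235408, 236065 and 213001 in PGRP-LB Ecc15, against 124264, 114298 and 134000.0 in WT Ecc15. Of 40 proteasome genes none was called by limma (4 higher and 1 lower at an unadjusted p under 0.05), and 1 was called lower under quantile normalization. Of 37 odorant-binding protein genes 3 were called higher (8.11%, near the 9.97% of all genes) and none lower, against 6.65% of all genes. Obp56h had 499, 525 and 165 in PGRP-LB Ecc15, against 56.5, 48.4 and 33.6 in WT Ecc15, and Obp49a had a log2 change of 2.56. Without WT Ecc15 library S1, 5 of these genes were called higher. Of 270 antisense RNAs 18 were called higher (6.67%) and 16 lower (5.93%), against 9.97% and 6.65% over all genes. Under quantile normalization 13 were called higher and 27 lower. The number higher was 10 without PGRP-LB Ecc15 library S2 or WT Ecc15 library S2, 11 without PGRP-LB Ecc15 library S1 and 9 with a mean of at least 10, and the number lower was 10 without WT Ecc15 library S1.

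Genes called with more than a 4-fold difference in one direction lay next to each other at several places. Taking those within 20 kb of each other, 35 runs of 3 or more held 135 genes. Some are known gene clusters, such as the cecropins on 3R (6 genes, Cec-Psi1 and Cec2 among them). Another run held 4 lower genes on 2R, among them the gustatory receptor genes Gr59c and Gr59d. Among 110 genes tested within 500 kb of PGRP-LB, 7 were called higher (6.36%) and 15 lower (13.6%), against 9.97% and 6.65% over all genes. Among 73 within 500 kb of w, 7 were called in each direction (9.59% each).

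CG34324, named after its values were seen, was called lower although its groups overlapped: it had 1.01, 98.4 and 1.01 in PGRP-LB Ecc15 and 61.5, 701 and 6559 in WT Ecc15, highest in a single wild-type library (adjusted p = 0.0491). Its call was lost in 11 of 20 alternatives, with an adjusted p of up to 0.15.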
